A study of Mus musculus with 19 samples.

Results

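The genes described here are 42 lineage transcription factors that lie outside the HOX clusters, drawn from the PAX, LHX, NKX, TBX, DLX, FOX and GATA families and the sine oculis homeobox family. They were listed by name from their developmental roles. All 42 were found as autosomal protein-coding genes among the 26180 RefSeq genes with a curated transcript. SOX3 occupancy was mapped in wild-type mice by chromatin immunoprecipitation followed by sequencing (ChIP-seq), with 2 replicates of 1 group and no other condition. The labels name testis at postnatal day 7, the study's methods name seminiferous tubules pooled from several juvenile animals, and the immunoprecipitation used a pair of SOX3 antibodies (SCBT and EMD Millipore). The authors' caller listed 58351 peaks for replicate 1 and 38832 for replicate 2, without read counts. The study's reporting summary gives more reads for replicate 2, the shorter list. A gene was called bound in a replicate when a peak of that replicate's list lay within 2 kb of 1 of its RefSeq start sites, and the strongest such peak by q score was used for its values. The q score is −10log10 of the caller's adjusted p-value, and the lists keep scores above 30.

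SOX3 is a high-mobility-group factor of neural progenitors and of undifferentiated spermatogonia. PAX, LHX, NKX, DLX and sine oculis proteins bind DNA through homeodomains or paired domains, TBX proteins through the T-box, FOX proteins through the forkhead domain and GATA proteins through zinc fingers. Many of these factors help set the identity of somatic tissues in the embryo. In cells that do not use them, such genes are typically held silent by Polycomb complexes on long CpG islands. The peak lists hold no expression values, so silence in germ cells could not be checked here. The tissue also holds somatic cells of the testis, some of which are known to use Gata6 or Lhx9, and a smaller share of bound cells cannot be told apart from weaker binding in each cell.

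SOX3 promoter peaks were found at 29 and 22 of the 42 lineage factors in replicates 1 and 2, whereas other genes with equally CpG-rich promoters would give 37.1 and 33.7. Many of their peaks missed the start site or differed in place between replicates. Over all autosomal protein-coding genes, whatever their CpG ratio, 69.1% had such a peak in replicate 1 and 61.5% in replicate 2. In total 18 members were bound in both replicates, against 59.3% of all such genes, 11 in replicate 1 only, 4 in replicate 2 only and 9 in neither. Gata6, Tbx2 and Dlx1 had the highest q scores in replicate 1, and Gata6 alone scored above 100 in both lists. With 1 condition and 2 replicates no test was made, and every comparison with other genes is a description.

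CpG content was measured as the observed over expected CpG ratio in 1 kb centred on the start site, using the highest value where a gene had several. The median ratio was 0.724 for the 42 members and 0.626 for the 19979 comparison genes, which were all other autosomal protein-coding genes. A ratio of 0.5 or more was found at 38 members. Pax4, Tbx5 and Pax8 went against the description of the group as CpG-rich, with ratios of 0.0516, 0.121 and 0.222. The sequences below are the 250 bases upstream of the start site, in GRCm38.p6 (mm10) and read 5′ to 3′ in the direction of transcription. They are shown so that the CpGs of bound and unbound factors can be read side by side, and the unbound ones were taken for their high CpG ratio. Every CpG is in capitals. Tbx18 (chr9:87731261-87731510, minus strand), Lhx4 (chr1:155742028-155742277, minus strand) and Dlx1 (chr2:71529195-71529444, plus strand) were bound in both replicates and have 15, 14 and 22 CpGs in these bases. The strongest peaks of Lhx4 and Dlx1 covered these bases in both replicates, and the peaks of Tbx18 did not reach them. The Tbx18 peaks lay 1701 bp upstream of the start site in replicate 1 and 148 bp downstream in replicate 2. Foxd3 (chr4:99656049-99656298, plus strand), Nkx2-1 (chr12:56536909-56537158, minus strand) and Tbx20 (chr9:24774304-24774553, minus strand) were bound in neither and have 21, 9 and 22.
Tbx18: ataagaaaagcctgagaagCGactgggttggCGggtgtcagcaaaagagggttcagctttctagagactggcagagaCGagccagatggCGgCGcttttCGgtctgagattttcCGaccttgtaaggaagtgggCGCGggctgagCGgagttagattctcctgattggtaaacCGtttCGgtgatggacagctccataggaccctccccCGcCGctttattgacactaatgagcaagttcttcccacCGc
Lhx4: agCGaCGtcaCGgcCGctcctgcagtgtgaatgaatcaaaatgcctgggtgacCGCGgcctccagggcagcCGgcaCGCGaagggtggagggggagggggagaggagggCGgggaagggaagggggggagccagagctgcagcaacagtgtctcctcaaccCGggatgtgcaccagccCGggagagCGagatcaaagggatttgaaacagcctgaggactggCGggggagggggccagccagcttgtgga
Dlx1: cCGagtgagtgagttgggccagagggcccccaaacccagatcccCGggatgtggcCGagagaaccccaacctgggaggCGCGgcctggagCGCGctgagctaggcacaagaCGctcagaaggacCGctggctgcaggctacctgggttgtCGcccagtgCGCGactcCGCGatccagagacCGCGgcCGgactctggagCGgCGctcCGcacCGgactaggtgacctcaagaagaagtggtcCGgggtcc
Foxd3: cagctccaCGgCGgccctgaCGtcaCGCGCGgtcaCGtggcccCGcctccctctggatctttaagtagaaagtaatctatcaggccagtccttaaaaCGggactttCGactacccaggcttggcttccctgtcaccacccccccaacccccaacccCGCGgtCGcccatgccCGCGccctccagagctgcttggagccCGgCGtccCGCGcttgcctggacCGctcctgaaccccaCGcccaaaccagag
Nkx2-1: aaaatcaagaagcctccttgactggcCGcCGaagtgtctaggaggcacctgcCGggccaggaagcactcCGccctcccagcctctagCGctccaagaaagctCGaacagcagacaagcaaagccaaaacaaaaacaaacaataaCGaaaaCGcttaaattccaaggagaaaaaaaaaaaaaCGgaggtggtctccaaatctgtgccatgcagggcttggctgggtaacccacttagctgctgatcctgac
Tbx20: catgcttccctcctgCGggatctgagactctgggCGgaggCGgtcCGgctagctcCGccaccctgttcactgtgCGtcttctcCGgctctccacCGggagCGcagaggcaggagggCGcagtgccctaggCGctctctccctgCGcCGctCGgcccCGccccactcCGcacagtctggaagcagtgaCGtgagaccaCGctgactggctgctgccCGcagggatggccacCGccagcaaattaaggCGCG

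The 6 promoters were searched with all others for AACAAT on both strands (ATTGTT on the other strand), the core that SOX proteins prefer, in the 300 bases from 250 before to 50 after the start site. Among the 42 members only the Nkx2-1 promoter held it (2.38%), and Nkx2-1 had no promoter peak. It was present in 9.48% of the promoters of all 26180 genes. At equal CpG ratio the share among comparison genes was 5.67%. A match of letters is a description and not a binding site.

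For the PAX genes, which carry a paired domain, 4 of 8 were bound in each replicate and 2 in both. Pax3, a factor of neural crest and muscle progenitors, had q scores of 31.1 in replicate 1 and 34.0 in replicate 2, and these peaks overlapped just upstream of the start site. Pax6, which directs the eye, had 34.6 and 41.9, from peaks at different start sites. The Pax3 scores were below the median of all peaks in both lists (41.4 and 39.5), and Pax6 was below it in replicate 1 and above it in replicate 2. Pax2, needed for the kidney, had a peak only in replicate 1 (49.8), as had the thyroid factor Pax8 (32.6). The sclerotome factor Pax1 was bound only in replicate 2, with a score of 31.2. Pax5, which commits cells to the B lineage, was likewise bound only in replicate 2 (33.8). With GENCODE start sites, or with a 5 kb window, Pax1 and Pax5 were bound in both replicates. Pax4 and Pax9 had no promoter peak in either list. Pax4, an endocrine pancreas factor, lay in a CpG class in which only 4.87% of comparison genes were bound in replicate 1. Pax9, a factor of teeth and pharyngeal pouches, had a ratio of 0.559, where 84.4% of comparison genes were bound in replicate 1, and its nearest peaks were 173883 bp and 13881 bp away in replicates 1 and 2.

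Of the LIM-homeodomain (LHX) genes, 7 of 7 were bound in replicate 1 and 5 of 7 in replicate 2. This was close to the 6.41 and 5.75 that genes of their CpG ratios would give. Lhx4, a pituitary factor, had the highest q score of the family in replicate 1 (94.8) and 41.9 in replicate 2, from overlapping peaks that spanned the start site at chr1:155741574-155743501 and chr1:155740896-155742774. Lhx8, used in cholinergic neurons and in oocytes, had 77.4 and 48.8, also from overlapping peaks. They began 1536 bp and 1547 bp downstream of the start site, within the gene. These peaks also lay within 2 kb of a start site of AI606473. Lhx3, the partner of Lhx4 in the pituitary, had 48.8 in replicate 1 and 33.6 in replicate 2. Lhx6, a factor of cortical interneurons, had 32.6 and 42.4, and Lhx5, a forebrain factor, had 30.0003 and 36.7. In neither of these genes did the peaks of the replicates overlap, and those of Lhx5 also lay near a start site of Gm27199. Lhx2, which forms the forebrain and eye field, had 77.4 in replicate 1 and no promoter peak in replicate 2, where the nearest peak was 24122 bp away. Lhx9, a factor of the early gonad, had 46.5 in replicate 1 and none in replicate 2.

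Among the NKX homeobox genes, Nkx2-5, the cardiac factor, was the only one of 4 bound in both replicates. Its q scores were 82.5 and 34.5, and its log2 ratio of ChIP over input in replicate 1 (4.34) was the highest of all members in that list. The peaks lay downstream of the start site and did not overlap between replicates. Nkx2-2, of the ventral neural tube, was bound in replicate 1 only, with a score of 59.7, and its peak also lay within 2 kb of a start site of 6430503K07Rik. Nkx6-1, of motor neurons and beta cells, was bound in replicate 1 only as well (42.2), although 97.5% of comparison genes of its CpG class were bound in replicate 2. Nkx2-1, of the thyroid and lung, had no peak within 10 kb in either replicate.

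The 8 T-box members fell into 5 bound in both replicates and 3 bound in neither, with no member bound in a single replicate. This split holds for the listed members only. Of 9 other T-box genes, 5 were bound in replicate 1, 4 in replicate 2 and 4 in both. Tbx2, a repressor of the heart and limb, had q scores of 123 and 45.1 from peaks that spanned its start site at chr11:85831827-85833645 and chr11:85831479-85834130. These peaks also lay near a start site of 2610027K06Rik. Tbx2 was the most densely covered member: peaks filled 35.2% of the 10 kb either side of its start site in replicate 1 and 43.3% in replicate 2. Tbx3, its close relative, had 95.2 and 35.2, and the replicate 1 peak was 3226 bp wide and the replicate 2 peak 708 bp. Both also lay near a start site of Tbx3os1. Tbx1, a factor of the pharyngeal arches, had 66.5 and 34.5 and the highest CpG ratio of the group (1.03). Tbx18, of the epicardium, had 52.2 and 62.4, 1 of the cases in which replicate 2 was the higher. Its peaks lay on opposite sides of the start site and did not overlap. Tbx4, of the hindlimb, had 34.6 and 43.8. Its forelimb counterpart Tbx5, which also acts in the heart, had none, nor had Tbx15, of the skeleton, or Tbx20, of the heart. The curated Tbx5 start site is the CpG-poor one named above, and with GENCODE start sites Tbx5 and Tbx15 were each bound in 1 replicate.

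The DLX genes lie in neighbouring pairs, and bound members occurred in each pair. Dlx1, a forebrain interneuron factor, had q scores of 116 and 37.0 from overlapping peaks that spanned its start site. Dlx2, its neighbour 17.3 kb away, had no promoter peak in replicate 1 and a score of 30.1 in replicate 2, the lowest of any member there. Dlx4 had 69.6 and 34.5, and Dlx3, of the placenta and hair follicle, had 35.7 and 43.8. The strongest peaks of the replicates overlapped at Dlx4, where they also lay near a start site of Dlx4os, and did not at Dlx3. Dlx6 and Dlx5, a pair of skeletal factors 18.7 kb apart, were the least bound. Dlx6 had a peak in replicate 2 only (39.2), which also lay near the start site of Dlx6os1, and Dlx5 had none. In replicate 1 the nearest peaks to these genes were 92137 bp and 73403 bp away.

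None of the sine oculis homeobox members was bound in replicate 2, against 2.50 of 3 for genes of the same CpG ratios. In replicate 1, Six2, of nephron progenitors, had a q score of 55.9 and Six6, of the retina and pituitary, had 43.3. Six3, of the forebrain and eye, had no promoter peak in either list. The FOX members gave the same counts, 2 of 3 in replicate 1 and 0 of 3 in replicate 2. Foxa1 and Foxa2, pioneer factors of the endoderm, both had 38.9 in replicate 1. They had no promoter peak in replicate 2, where 2.80 of 3 FOX members would be given by CpG ratio alone. Their nearest peaks there were 3483 bp and 90654 bp away, and with a 5 kb window Foxa1 was bound in both replicates. Foxd3, of the neural crest, was the most CpG-rich member without a promoter peak (ratio 0.821), yet it had 1 peak within 10 kb in replicate 1 and 4 in replicate 2.

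The GATA genes were bound in 3 of 3 cases in replicate 1 and 2 of 3 in replicate 2. Gata6, which acts in the primitive endoderm, the heart and somatic cells of the gonad, had q scores of 198 and 118, the highest of any member in both lists. Its log2 ratios were 3.81 and 2.85 and its peaks were 4778 bp and 1184 bp wide, spanned the start site and overlapped. Even so, it ranked only 5703 of 58351 peaks in replicate 1 and 3080 of 38832 in replicate 2. These peaks were also within 2 kb of a start site of Gata6os, the divergent transcript next to it, so the lists do not assign them to either gene. Gata2, of blood stem cells, had 49.8 and 42.1, from peaks at different start sites. Gata3, of T cells and trophoblast, had 40.3 in replicate 1 and no peak in replicate 2, where the nearest lay 169259 bp away.

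**Figure D1:**
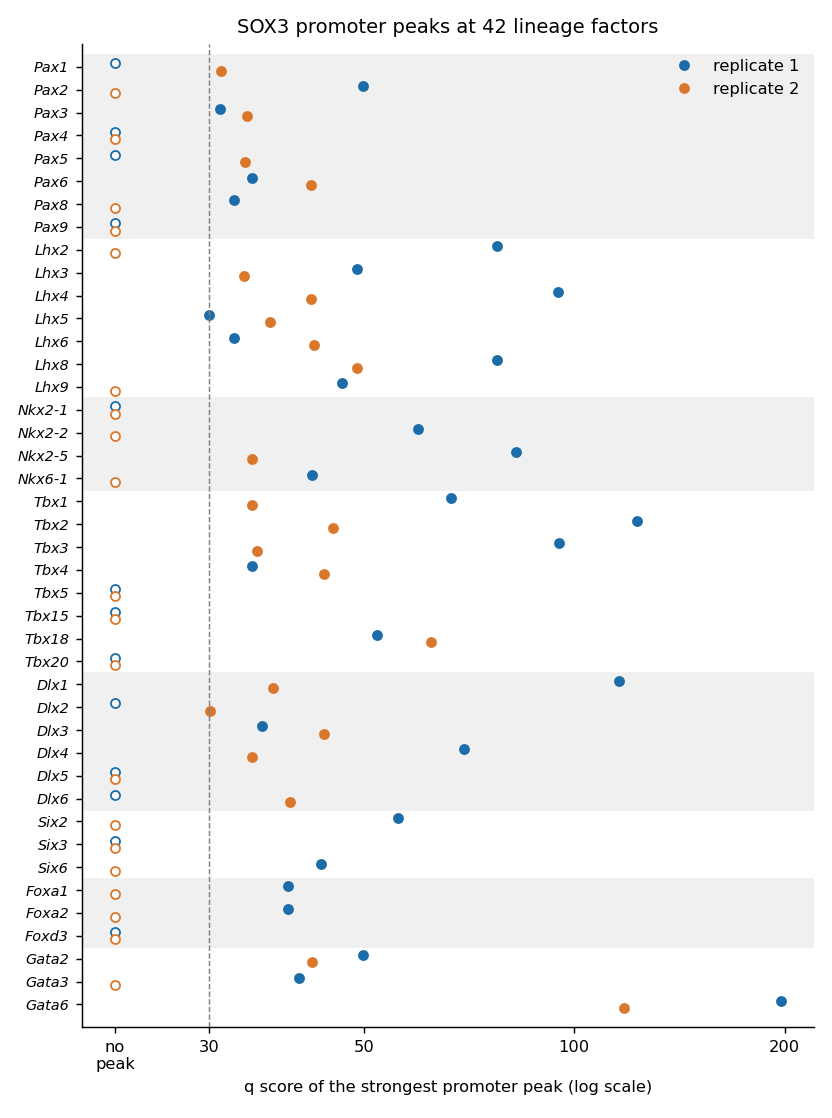
q score of the strongest promoter peak of each of the 42 members (log axis), with replicate 1 in blue and replicate 2 in orange, and members without a promoter peak as open circles at the left. Grey bands separate the families and the dashed line is the threshold of 30. In replicate 2 only Gata6 and Tbx18 exceed 60, and Gata6 is the highest in both replicates (198 and 118).

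To compare the members with genes of equal CpG ratio, the comparison genes were put in classes of 0.1 of the ratio and the share bound in each class was weighted by the number of members in it. This gave 37.1 of 42 bound in replicate 1, where 29 were observed, and 33.7 of 42 in replicate 2, where 22 were observed. As shares, 60.7% ± 11.8 of the members were bound and 84.3% ± 5.57 of genes of equal CpG ratio (mean ± SD, n = 2). The difference was −19.2 percentage points in replicate 1 and −28.0 in replicate 2 (mean −23.6 ± 6.22 (SD, n = 2)), so it exceeded the spread between replicates and had the same sign in both. Among the 15 members with a ratio from 0.7 to 0.8, 10 were bound in each replicate, against 96.6% and 90.3% of 3155 comparison genes. Of the 3 members from 0.9 to 1.0 only Tbx3 was bound in replicate 2, where 97.5% of comparison genes were. Counted as bound in both replicates, the 18 members compare with 33.2 of 42 at equal CpG ratio. The mean difference was −13.3 points with a window of 5 kb, and −51.0 with only peaks covered to 50% by a peak of the other replicate.

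**Figure D2:**
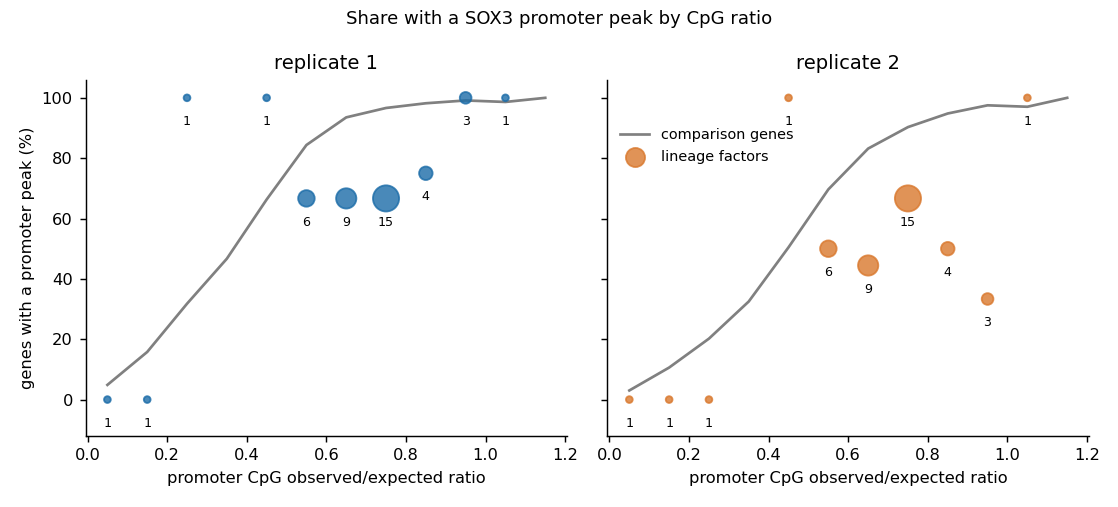
Share of genes with a promoter peak (vertical axis, percent) by promoter CpG ratio (horizontal axis, classes of 0.1), for comparison genes as a grey line and for members as circles with their number beside them. In the class from 0.7 to 0.8, 10 of 15 members had a peak in each replicate, below the line at 96.6% in replicate 1 and 90.3% in replicate 2.

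For strong peaks the difference was −52.0 ± 2.11 percentage points (SD, n = 2). A q score above 60 was reached by 10 members in replicate 1, where 57.0% of all autosomal protein-coding genes reached it and 32.4 of 42 would at equal CpG ratio. These were Lhx2, Lhx4, Lhx8, Nkx2-5, Tbx1, Tbx2, Tbx3, Dlx1, Dlx4 and Gata6. In replicate 2 it was reached only by Gata6 and Tbx18, against 41.2% of all such genes and 23.2 of 42 at equal CpG ratio. A score above 100 was reached by Tbx2, Dlx1 and Gata6 in replicate 1 (27.9 at equal CpG ratio) and by Gata6 in replicate 2 (11.9 at equal CpG ratio). Within its CpG class each member was also given the percentile of its q score, with unbound genes tied at the lowest rank. The mean of this percentile over the comparison genes is 50 by construction. Over all 42 members the median was 8.27 in replicate 1 and 14.2 in replicate 2 (mean 11.2 ± 4.17 (SD, n = 2)), and the mean was 16.2 and 19.6. Below the 50th percentile were 40 members in replicate 1 and 39 in replicate 2. An unbound gene lies below it by construction, so these counts include every unbound member. Above it were Gata6 (70.2) and Pax8 (71.5) in replicate 1, and Gata6 (87.9), Tbx4 (70.8) and Lhx8 (54.9) in replicate 2, so Gata6 alone was above it in both. Pax8 was ranked in a CpG-poor class in which 31.8% of comparison genes were bound in replicate 1.

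**Figure D3:**
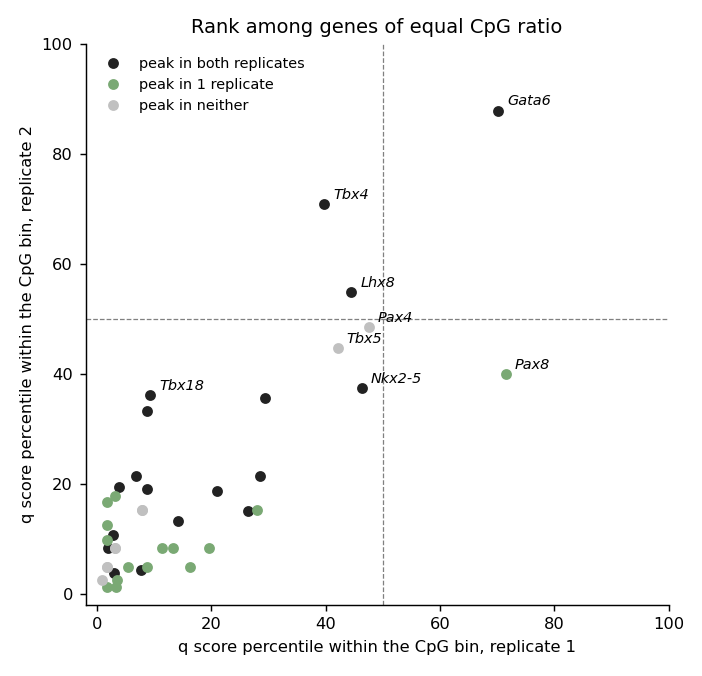
Percentile of each member's q score among comparison genes of the same CpG class, replicate 1 on the horizontal and replicate 2 on the vertical axis. Point colour shows whether a member was bound in both replicates, in 1 or in neither, and dashed lines mark the 50th percentile. Gata6 is the only point above both lines (70.2 and 87.9), and 25 members in replicate 1 and 18 in replicate 2 lie below the 10th percentile.

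The median values of bound members lay below those of other bound promoters, and such values exist only for bound genes. They were above the medians of all peaks in replicate 1, but in replicate 2 only for width. The median q scores of bound members were 49.8 in replicate 1 and 38.1 in replicate 2. Bound comparison genes of the same CpG classes had 187 and 81.3, and all peaks had 41.4 and 39.5. The values of comparison genes in this paragraph are class medians averaged over the bound members. Median log2 ratios were 2.95 in replicate 1, with a range from 2.22 to 4.34, and 2.61 in replicate 2, with a range from 1.98 to 4.041. Bound comparison genes of the same CpG classes had 3.70 and 2.66, so the values in replicate 2 were close to each other and those in replicate 1 were not. Over all peaks the medians were 2.85 and 2.77. Median widths were 978 bp and 801.5 bp against 1638 bp and 1310 bp, and 738 bp and 697 bp over all peaks. The widest member peaks were those of Gata6 in replicate 1 (4778 bp) and Tbx2 in replicate 2 (2652 bp). Many peaks share an identical pair of q score and log2 ratio. Lhx6 and Pax8, for example, both had 32.6 and 2.63 in replicate 1. The pair of values of each bound member occurred in at least 16 peaks of the list in replicate 1 and at least 15 in replicate 2. Small differences in q score between members are therefore steps of a coarse scale.

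The position of the peaks was counted in the same way. The strongest peak spanned a start site at 16 members in replicate 1 and 13 in replicate 2, whereas 35.0 and 30.8 of 42 would at equal CpG ratio (difference −43.7 ± 1.99 percentage points, SD, n = 2). An unbound gene counts as not spanning, so this difference includes the lower share bound. Among bound members alone, 55.2% and 59.1% spanned a start site, against 89.6% and 87.5% of bound comparison genes of any CpG ratio. Of the member peaks that spanned no start site in replicate 1, 6 lay upstream and 7 downstream of it. In replicate 2, 3 lay upstream and 6 downstream. Peak midpoints fell in an exon of the gene in 8 cases, in an intron in 17 and outside the gene in 4 in replicate 1. In replicate 2 they fell in an exon in 6 cases, in an intron in 11 and outside the gene in 5. The farthest peaks still counted were 1701 bp away at Tbx18 in replicate 1 and 1650 bp at Lhx5 in replicate 2, and the nearest left out were 2444 bp away at Six3 in replicate 1 and 2354 bp at Foxd3 in replicate 2. At the q threshold, Lhx5 in replicate 1 and Dlx2 in replicate 2 were the lowest scores kept (30.0003 and 30.1), and the lists hold none below it. Within 10 kb of a start site the members differed less in the presence of a peak. At least 1 peak was found there at 35 members in replicate 1 and 30 in replicate 2, against 38.1 and 35.6 of 42 at equal CpG ratio. The mean number of such peaks was 1.98 and 1.31 per member, against 2.18 and 1.64. These peaks covered 8.67% and 5.19% of the bases, against 14.7% and 9.17%. Pax9, Nkx2-1 and Tbx15 had no peak within 10 kb in either replicate, and the start sites of Nkx2-1 and Pax9 lie 158.6 kb apart on chromosome 12.

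**Figure D4:**
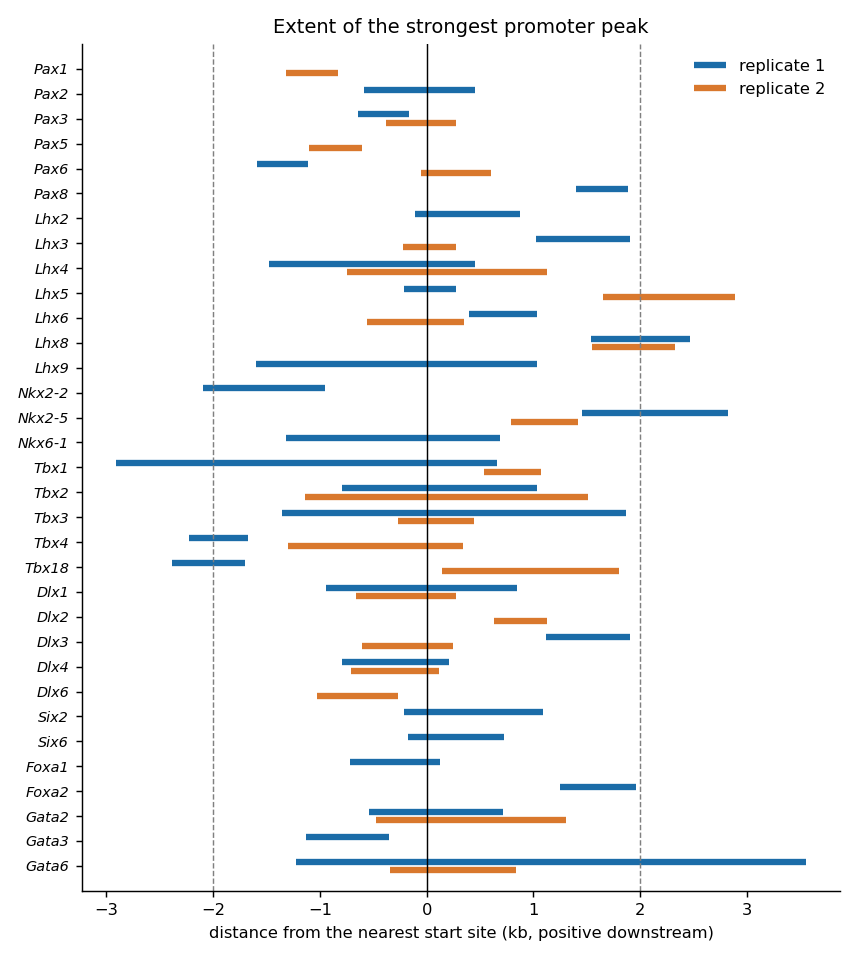
Extent of the strongest promoter peak of the members bound in at least 1 replicate, in kb from the nearest start site with positive values downstream, replicate 1 in blue and replicate 2 in orange. The solid line is the start site and the dashed lines are the 2 kb limits. Peaks span the start site at 16 members in replicate 1 and 13 in replicate 2, and those of Tbx18, Lhx5 and Nkx2-5 do not overlap between replicates.

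The replicates were often discordant at the lineage factors. Of the members bound at all, 45.5% were bound in 1 replicate only, against 16.7% of bound comparison genes of any CpG ratio. Promoter peaks of the replicates that shared at least 1 base were found at 13 of the 42 members, against 57.9% of all autosomal protein-coding genes and 32.6 of 42 at equal CpG ratio. The 13 were Pax3, Lhx3, Lhx4, Lhx8, Tbx1, Tbx2, Tbx3, Tbx4, Dlx1, Dlx3, Dlx4, Gata2 and Gata6. The strongest peaks themselves overlapped at 9 of them, the exceptions being Lhx3, Tbx4, Dlx3 and Gata2. The 13 are 72.2% of the 18 members bound in both replicates, whereas among comparison genes bound in both it was 97.6%. The 11 members bound in replicate 1 only had q scores from 32.6 to 77.4 with a median of 43.3. The 4 bound in replicate 2 only had scores from 30.1 to 39.2. Members bound in both replicates had the higher q score in replicate 1 in 11 of 18 cases. ChIP-nexus, a ChIP variant with exonuclease trimming, gave 110 peaks in replicate 1 and 18 in replicate 2, and 0 of them lay within 10 kb of a member. Over all autosomal protein-coding genes the share with such a peak was 0.355% in replicate 1 and 0.0% in replicate 2, so the count says nothing about the members.

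Other developmental genes were counted in the same way, each list against comparison genes of its own CpG ratios, and differences between lists were not tested. The other 72 genes of the same families include broadly used ones such as Foxo1 and Foxo3, and were bound in 57 cases in replicate 1 (59.9 at equal CpG ratio) and 43 in replicate 2 (54.4). With a q score above 60 they numbered 34 (51.6) and 20 (38.4). Of the 39 HOX cluster genes, which set position along the body axis, 30 were bound in replicate 1 (33.6 at equal CpG ratio) and 16 in replicate 2 (30.1), with 6 and 1 above a score of 60. Of 17 proneural bHLH genes, 11 and 10 were bound (14.5 and 13.0 at equal CpG ratio), with 5 and 1 above 60. All 73 cytosolic ribosomal protein genes were bound in both replicates, with 73 and 69 above 60. Comparison genes were autosomal, as were all HOX and proneural genes, 67 of the 72 other family genes and 69 of the 73 ribosomal protein genes. The mean difference from genes of equal CpG ratio was −23.6 ± 6.22 percentage points for the lineage factors, −9.90 ± 8.38 for the other family genes, −22.6 ± 19.1 for the HOX genes, −19.2 ± 2.07 for the proneural genes and 5.30 ± 3.44 for the ribosomal protein genes (SD, n = 2). For the HOX and other family genes the SD was nearly as large as the mean difference. For q scores above 60 the mean difference was −53.1 ± 5.69 for the HOX genes and −44.0 ± 1.13 for the proneural genes. For peaks spanning a start site these lists had −48.8 ± 3.33 and −56.1 ± 0.922. The other family genes had −25.0 ± 0.748 and −24.7 ± 6.55. Replicate peaks overlapped at 10 HOX genes (28.8 at equal CpG ratio), 6 proneural genes (12.5) and 35 other family genes (52.2). These traits were thus not particular to the lineage factors.

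**Figure D5:**
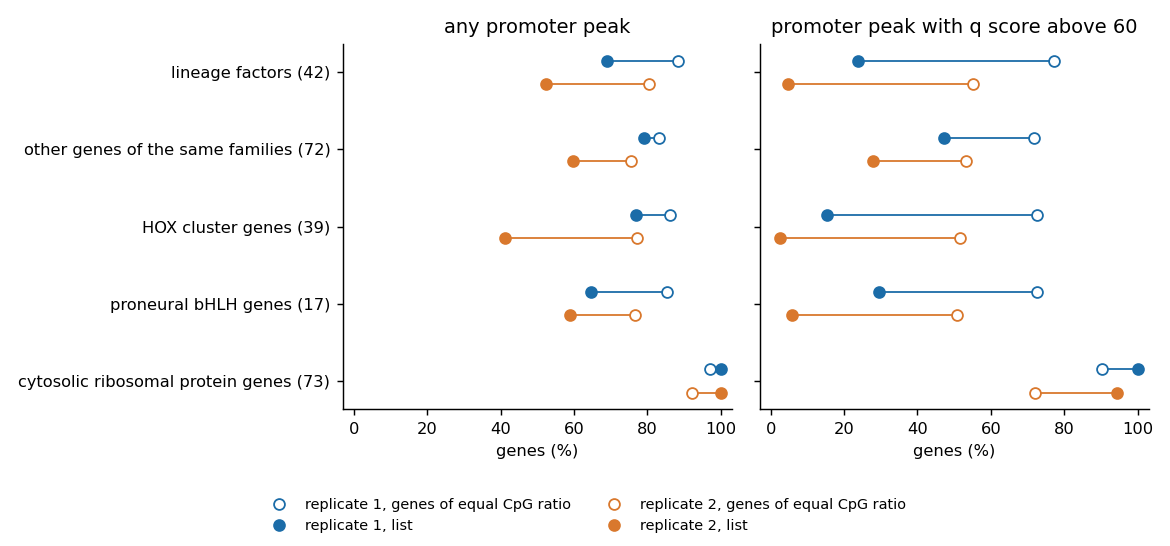
Percent of genes in each list (number of genes in parentheses) with any promoter peak (left) and with one of q score above 60 (right), as filled circles, beside the percent among comparison genes of equal CpG ratio as open circles, for replicate 1 in blue and replicate 2 in orange. In both panels the lineage factors lie left of their open circles in both replicates (69.0% against 88.2% and 52.4% against 80.3% for any peak). The other developmental lists also lie left of theirs, and the ribosomal protein genes lie right.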

How the data were processed

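SOX3 ChIP-seq peaks of 2 testis replicates (postnatal day 7) were analysed, with ChIP-nexus lists checked beside them. Per the study's methods, the authors aligned reads to mm10 with Novoalign, assigning reads with several matches at random to one of them, removed duplicates with Picard and called peaks per replicate against input with USeq. Random assignment can place reads of repeats at a wrong copy. The ChIP-seq lists were deposited without a header line, so the names of their columns (the q score and the log2 ratio of ChIP over input) were inferred from the caller's layout and from the values. The deposited ChIP-nexus lists give a fold ratio and −log10 q from MACS2 2.1.1 (submitters' processing notes), and entries on a phage sequence were left out. Absence from a list does not show absence of binding. The labels name 19 samples, and those other than the 4 SOX3 samples were not analysed here.

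Start sites were those of RefSeq curated transcripts on GRCm38.p6. The CpG ratio, classes of 0.1, the 2 kb window and percentiles are as described above, and no test was made. Sequences were taken from the RefSeq genome (GRCm38.p6), and a separate promoter reference held a promoter for 30 of the 42 members. Shown were the 3 members bound in both replicates with the best mean rank of the q score and the 3 bound in neither with the highest CpG ratio, among those with a promoter there, with no other annotated start site or exon in the printed bases and not on chromosome 18. All members were named, and other genes only where they shared a peak or where a list needed an example (Foxo1 and Foxo3, chosen after their values were seen). The members and lists were chosen with earlier results of these data known. Alternatives covered the window, the threshold, the annotation, replicate overlap, the CpG measure and each replicate alone. Peaks near a single gene and members with a ratio of 0.3 or more were added after seeing the data. Peak matching gave the same pairs as bedtools 2.31.1 when tested on simulated data. Python 3.11.15, numpy 2.4.6 and pandas 2.3.3 were used.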

Additional observations from a re-analysis of the deposited data

How the results depend on the processing

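The difference from genes of equal CpG ratio stayed negative in every alternative run, from −52.0 to −13.3 percentage points. It was −33.3 with a 1 kb window, −13.3 with a 5 kb window, −52.0 with q scores above 60 and −51.0 with only peaks covered to 50% by a peak of the other replicate, and with 1 replicate left out it ranged from −28.0 to −19.2. The 18 members bound in both replicates became 1 with q scores above 60 (Gata6) and 7 with peaks covered to 50%. A single replicate gave 22 to 29. With q scores above 60 the median width of the strongest peak was 1611 bp and its median log2 ratio 3.45, over the few members left. The mean median percentile (11.2) was 25.1 ± 17.4 (SD, n = 2) when ranked by log2 ratio, from 12.8 in replicate 1 and 37.4 in replicate 2. It was 24.8 with peaks near a single gene only. That setting left Pax1, Lhx5, Lhx8, Nkx2-2, Tbx3, Dlx4, Dlx6 and Gata6 unbound, took Tbx2 from 2 replicates to 1 and left 12 members bound in both, as did a 1 kb window. Without a test these are values, and their causes were not tested. The other 47 of 58 alternative values moved by less than the spread between replicates, or by at most 1.5 times for counts. Values other than counts cannot move by more than this spread when 1 of 2 replicates is left out. Those runs are among the 47 by construction and do not show stability. No paired analysis was possible because there is 1 condition and the replicates have no group to be paired with. The lists hold no reads per region, so how many reads lay at a member without a peak is not known from them.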
